A study of Hordeum vulgare with 10 samples.

Results

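Receptor kinases of the wall-associated, lectin, cysteine-rich and LysM classes were followed in barley roots exposed to ergosterol or to fungal lipids. Transcripts belong to this set when their description in the deposited table contains the word kinase together with wall-associated, lectin, cysteine-rich, LysM or chitin elicitor, and does not contain leucine-rich or LRR. Of 37962 distinct transcripts, 136 carried such a description, and the 54 members were selected on their measured level, a mean of at least 1 TPM (a length-corrected share of a library's transcripts) over all 10 libraries. They came from 54 loci and were compared with the 18330 transcripts that reached the same minimum. No description containing chitin elicitor was found.

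All roots came from unmodified *Hordeum vulgare* cv Golden Promise, and no group carried a mutation or a transgene. Roots of 7-d-old seedlings were cut into pieces of 5 mm, 24 pieces per well, and the pieces of 2 wells were combined for each replicate. Pieces rested overnight in buffer before treatment, so that every group consisted of excised and recovered root tissue. RNA was taken 2 h post treatment (hpt) from 3 solvent control libraries (methanol at a final 1 : 40), 3 ergosterol libraries (250 nM) and 4 *S. indica* lipid libraries (a crude extract of the root endophyte *Serendipita indica* at a final 1 : 160). The sources used here do not say whether replicates came from separate sowings, and *p*-values measure the spread between these libraries only.

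Receptor kinases of this kind sit in the plasma membrane, with an ectodomain in the apoplast and a kinase domain in the cytoplasm. LysM kinases bind chitin fragments and related sugars, and the rice kinase OsCERK1 is a known example. Wall-associated kinases (WAKs) bind pectin and its fragments, as shown in Arabidopsis. Cysteine-rich kinases (CRKs) carry a domain with conserved cysteines and are linked to responses to pathogens and reactive oxygen. Lectin kinases are named for a sugar-binding fold of the legume (L-type) or the bulb (G-type, or S-locus) kind, and in Arabidopsis members of these families perceive extracellular ATP and bacterial hydroxy fatty acids.

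The libraries showed the expression of root tissue. Transcripts described as nicotianamine synthase (14 transcripts) summed to between 83.8 and 156 TPM per library and those of high-affinity nitrate transporters (22 transcripts) to between 542 and 807 TPM. Expansins (85 transcripts) summed to between 251 and 488 TPM. A further root marker, Casparian strip membrane protein, matched no description and could not be judged. Chlorophyll a-b binding protein, a leaf marker, stayed between 0.0642 and 0.319 TPM. The small subunit of Rubisco (11 transcripts) summed to 3.08 to 7.71 TPM, and 3 transcripts of photosystem II or the oxygen-evolving complex summed to 14.3 to 24.5 TPM. No library stood apart, since the median Pearson's *r* of each with the others lay between 0.966 and 0.978 across transcripts. TPM keep no read totals, so library depth is unknown, and precision can be judged from the replicates alone. Whole root pieces were sequenced, and more RNA per cell cannot be told apart from more cells of a type.

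The classes were detected to different extents. Both described LysM kinases reached the minimum, as did 13 of 28 CRKs, 6 of 26 WAKs, 2 of 6 G-type lectin kinases and 31 of 74 other lectin kinases. Of the 82 described transcripts below the minimum, 40 were listed at 0 TPM in every library, among them 13 WAKs, 8 CRKs and 17 other lectin kinases. Reads of cv Golden Promise were matched to the MorexV3 cDNA. Whether each listed copy is present in Golden Promise was not tested. The identifiers place 11 members on chromosome 1H, 14 on 2H, 5 on 3H, 4 on 4H, 8 on 5H, 4 on 6H and 8 on 7H.

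At the edge of the minimum, the lowest members were the lectin receptor kinase HORVU.MOREX.r3.1HG0093920.1, with a mean of 1.29 TPM, and the lectin protein kinase HORVU.MOREX.r3.1HG0088860.1, with 1.41 TPM. Just outside lay the lectin receptor kinase HORVU.MOREX.r3.6HG0564570.1, with 0.956 TPM, and the WAK HORVU.MOREX.r3.4HG0355860.1, with 0.810 TPM. A single member, HORVU.MOREX.r3.1HG0093920.1, lay below 1 TPM in the solvent control (mean 0.652) and passed the minimum through the treated libraries.

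Levels of the 54 members spanned more than 3 orders of magnitude, with a median of 8.50 TPM. Of these, 17 had a mean below 5 TPM, 30 lay between 5 and 50 TPM and 7 lay at 50 TPM or above. A single lectin protein kinase, HORVU.MOREX.r3.5HG0435490.1, carried 60.7% of the summed level, with a mean of 2043 TPM. Its level was 2346, 2569 and 1655 TPM in the solvent control, 1758, 1941 and 1803 TPM upon ergosterol and 1728, 2003, 2037 and 2591 TPM upon *S. indica* lipids. These groups overlapped, and neither treatment passed the test (log2FC −0.23 ± 0.18 SE and −0.06 ± 0.17 SE, adjusted *p* = 0.506 and 0.909).

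Next in level were the L-type lectin-domain kinase HORVU.MOREX.r3.4HG0417590.1 (275 TPM), the lectin protein kinase HORVU.MOREX.r3.5HG0434930.1 (224 TPM) and a further L-type kinase, HORVU.MOREX.r3.1HG0044530.1 (107 TPM), which is named outside the rule for named genes. HORVU.MOREX.r3.5HG0434930.1 varied within groups, with 395, 238 and 144 TPM in the solvent control and 138, 184, 265 and 338 TPM upon *S. indica* lipids. The most abundant CRKs were HORVU.MOREX.r3.5HG0516270.1 (96.6 TPM) and HORVU.MOREX.r3.3HG0308350.1 (72.5 TPM). The WAKs were low, with the highest means at 7.12 TPM (HORVU.MOREX.r3.4HG0352850.1) and 6.16 TPM (HORVU.MOREX.r3.5HG0460600.1).

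**Figure D1:**
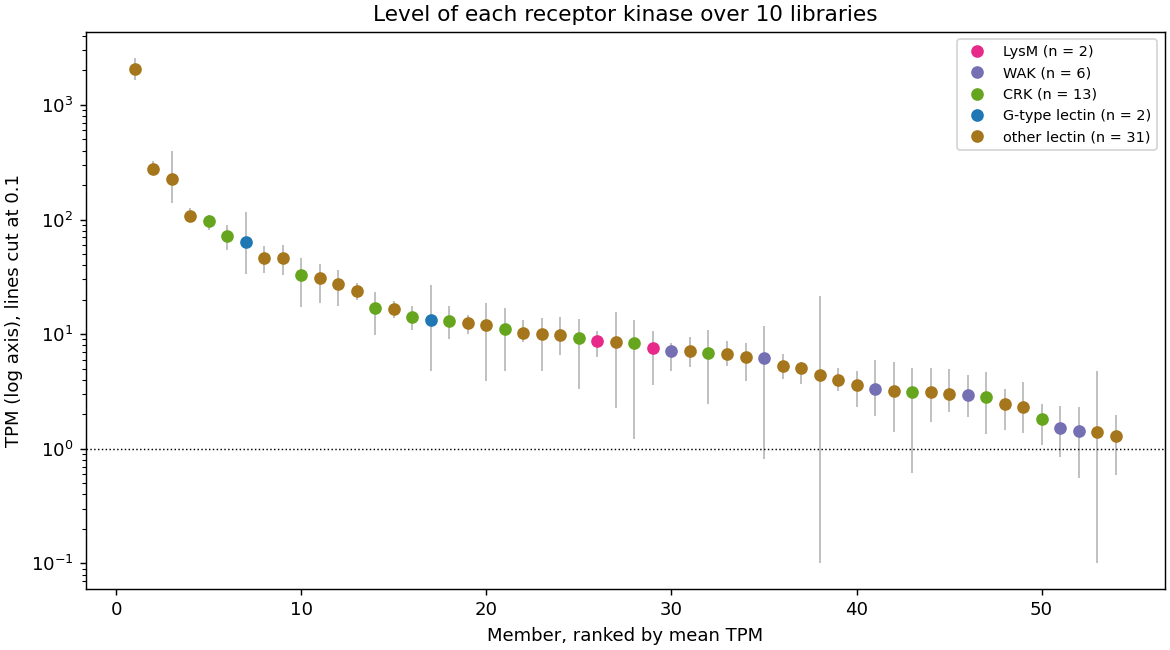
Mean level of each of the 54 receptor kinases over the 10 libraries, ranked, on a log axis in TPM. Colours give the receptor class, grey lines run from the lowest to the highest library (cut at 0.1 TPM where a library was at 0), and the dotted line marks the minimum of 1 TPM. The lectin kinase at 2043 TPM stands above the others, and all 6 WAKs lie below 10 TPM.

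To ask which of these receptor kinases responded to ergosterol, the ergosterol libraries were compared with the solvent control. Of the 54 members, 3 lectin receptor kinases (5.56%) rose past both limits (adjusted *p* no higher than 0.05, log2FC no lower than 1), and none fell. Here log2FC is the difference of mean log2(TPM + 1), which understates the change of low transcripts. Over all transcripts tested, 1.16% rose and 0.0709% fell past both limits. With the adjusted *p* alone, 7 members (13.0%) were higher and 0 were lower, against 2.85% and 0.458% of all transcripts. An unadjusted *p* under 0.05 was reached by 17 members (31.5%) that were higher and 4 (7.41%) that were lower, against 7.87% and 11.8% of all transcripts. The 7 include HORVU.MOREX.r3.1HG0093920.1, which reached the minimum only through the treated libraries, and among the 53 members at 1 TPM or more in the solvent control 6 (11.3%) were higher. The count of 7 fell to 3 without ergosterol replicate 3 and to 4 without ergosterol replicate 1, solvent control replicate 1 or solvent control replicate 3, while 3 or 4 members passed both limits whichever library was left out.

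Upon *S. indica* lipids, 3 members (5.56%) rose past both limits, namely 2 lectin receptor kinases that also rose upon ergosterol and a G-type lectin kinase, and none fell. Among all transcripts the shares were 1.17% and 0.0927%. By the adjusted *p* alone 8 members (14.8%) were higher and 1 (1.85%) was lower, against 3.29% and 0.584% of all transcripts. At an unadjusted *p* under 0.05 these counts were 20 (37.0%) and 1 (1.85%), against 8.56% and 6.75% of all transcripts. The count of 8 fell to 4 without solvent control replicate 1 and to 5 without solvent control replicate 3, and the count of 3 past both limits rose to 5 without solvent control replicate 2. Both comparisons use the same solvent control libraries, so their values are not independent of each other. Of the 10 members higher in either comparison by the adjusted *p*, 5 were higher in both. The 10 include HORVU.MOREX.r3.1HG0093920.1, which reached the minimum only through the treated libraries and is not among the 5.

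Complete separation of libraries gave a similar picture. All ergosterol libraries lay above all solvent control libraries for 19 members, and below them for 2, where 9.09% and 17.0% of all transcripts did so. For *S. indica* lipids, 15 members lay wholly above and 1 wholly below, against 6.85% and 6.4% of all transcripts. The 15 were among the 19, and both counts include HORVU.MOREX.r3.1HG0093920.1, which reached the minimum only through the treated libraries. The median log2FC over the 54 members was 0.13 upon ergosterol and 0.14 upon *S. indica* lipids, and that over all transcripts was −0.08 and −0.04.

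**Figure D2:**
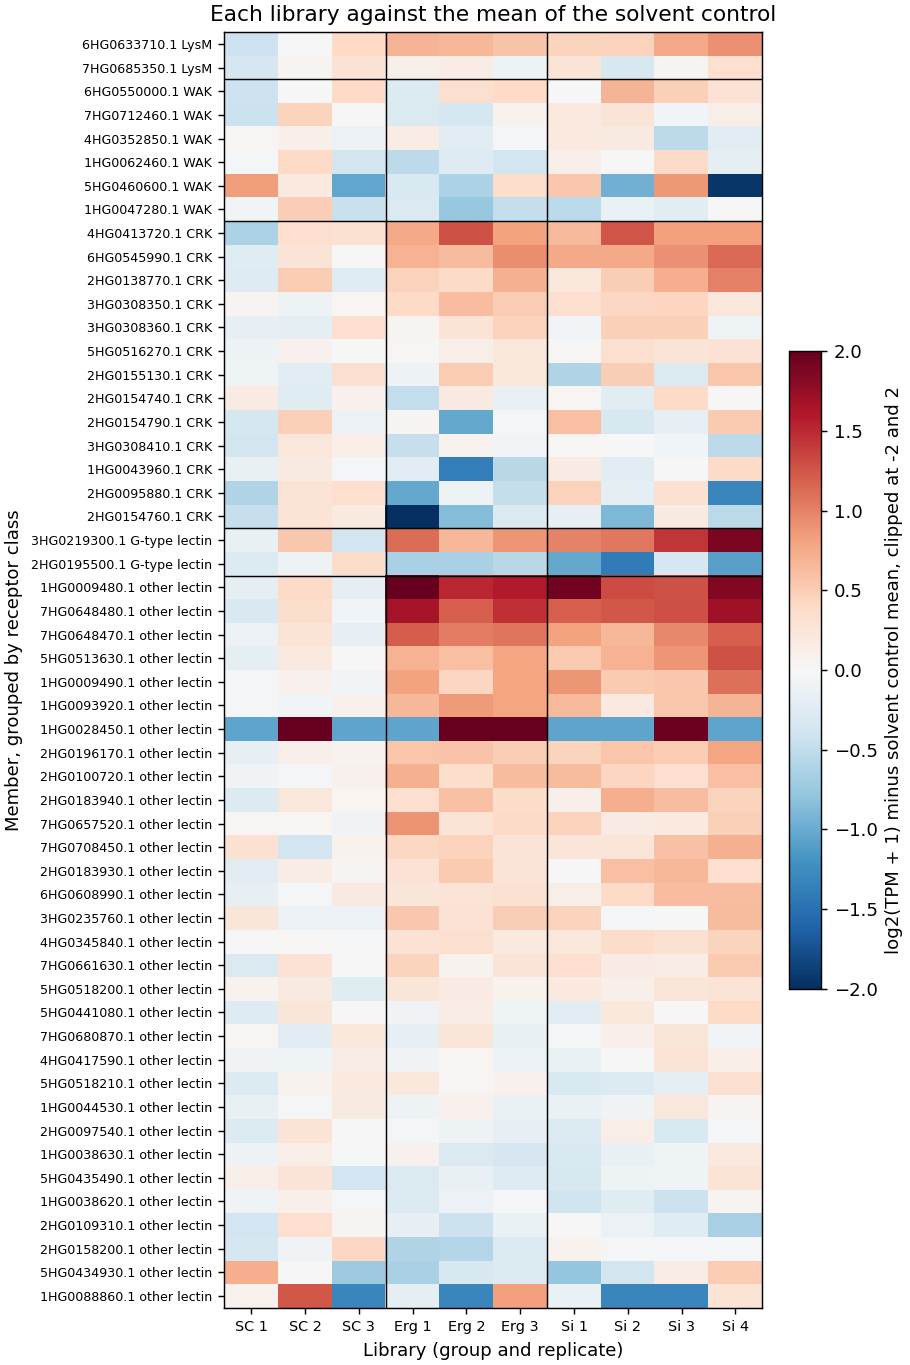
Log2(TPM + 1) of each receptor kinase in each library minus its mean in the solvent control, clipped at −2 and 2, with libraries in columns (SC solvent control, Erg ergosterol, Si *S. indica* lipids) and the 54 kinases in rows by class. Red marks levels above the solvent control mean, and the 15 kinases whose treated libraries all lay above the solvent control appear as unbroken red bands across the 7 treated columns.

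The largest rise among members that passed the test was that of the lectin receptor kinase HORVU.MOREX.r3.1HG0009480.1. It measured 2.27, 3.86 and 2.27 TPM in the solvent control, 15.8, 9.66 and 10.2 TPM upon ergosterol and 13.2, 8.22, 8.03 and 12.4 TPM upon *S. indica* lipids. Every treated library was at least 8.03 TPM and every solvent control library at most 3.86 TPM. Ergosterol gave a log2FC of 1.76 ± 0.25 (SE), or 3.38-fold (adjusted *p* = 0.0031), and the value was 1.59 ± 0.23 upon *S. indica* lipids (3.01-fold, adjusted *p* = 0.0030), which ranked 45th and 72nd of all rises.

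Its neighbour by identifier, the lectin receptor kinase HORVU.MOREX.r3.1HG0009490.1, was lower in level and is named for its position and not by the rule. It had 1.75, 2.00 and 1.71 TPM in the solvent control, 3.91, 2.78 and 3.87 TPM upon ergosterol and 4.17, 3.03, 3.08 and 5.02 TPM upon *S. indica* lipids. Its treated libraries also lay above all controls, with a log2FC of 0.67 (adjusted *p* = 0.0860) and 0.76 (adjusted *p* = 0.0364). The latter passed in 3 of 10 fits with a library left out. Summed over both neighbours, the level was 4.62 ± 1.07 TPM (SD, n = 3) in the solvent control, 15.4 ± 3.79 upon ergosterol (n = 3) and 14.3 ± 3.60 upon *S. indica* lipids (n = 4).

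A second pair of neighbours, on chromosome 7H, held the other lectin receptor kinases that rose. HORVU.MOREX.r3.7HG0648480.1 measured 3.93, 6.74 and 4.84 TPM in the solvent control, 18.0, 12.9 and 15.7 TPM upon ergosterol and 12.9, 13.4, 13.8 and 18.7 TPM upon *S. indica* lipids. The lowest treated library, at 12.9 TPM, lay well above the highest control. Its log2FC was 1.44 ± 0.19 (SE; adjusted *p* = 0.0024) upon ergosterol and 1.36 ± 0.18 (adjusted *p* = 0.0018) upon *S. indica* lipids.

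HORVU.MOREX.r3.7HG0648470.1 had 4.93, 6.82 and 4.75 TPM in the solvent control, 13.8, 12.04 and 12.5 TPM upon ergosterol and 10.2, 9.21, 11.5 and 13.8 TPM upon *S. indica* lipids. Again no treated library overlapped the controls. The log2FC was 1.10 ± 0.16 (SE; adjusted *p* = 0.0040) upon ergosterol, past both limits, and 0.90 ± 0.15 (adjusted *p* = 0.0067) upon *S. indica* lipids, short of the fold limit. Summed, the pair rose from 10.7 ± 2.53 TPM (SD, n = 3) to 28.3 ± 3.40 (n = 3) and 25.9 ± 4.58 (n = 4). The solvent control library with the highest level was replicate 2 for each of these 3 called lectin receptor kinases, and all 3 kept an adjusted *p* of at most 0.05 in both comparisons in each of the 10 fits with a library left out.

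Reads that match near-identical copies can be divided between neighbours by the authors' quantification, so the split within a pair is less certain than its sum. By identifiers, 16 members fell into 7 groups of neighbours (running numbers within 50 of each other). Members that are no named genes by the rule are given here, and with other groups, for their position. On 2H, the lectin receptor kinases HORVU.MOREX.r3.2HG0183930.1 and HORVU.MOREX.r3.2HG0183940.1 had log2FC of 0.35 and 0.43 upon ergosterol and 0.40 and 0.48 upon *S. indica* lipids, and neither passed the test. On 1H, HORVU.MOREX.r3.1HG0038620.1 and HORVU.MOREX.r3.1HG0038630.1 had −0.15 and −0.18 upon ergosterol and −0.26 and −0.08 upon *S. indica* lipids.

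**Figure D3:**
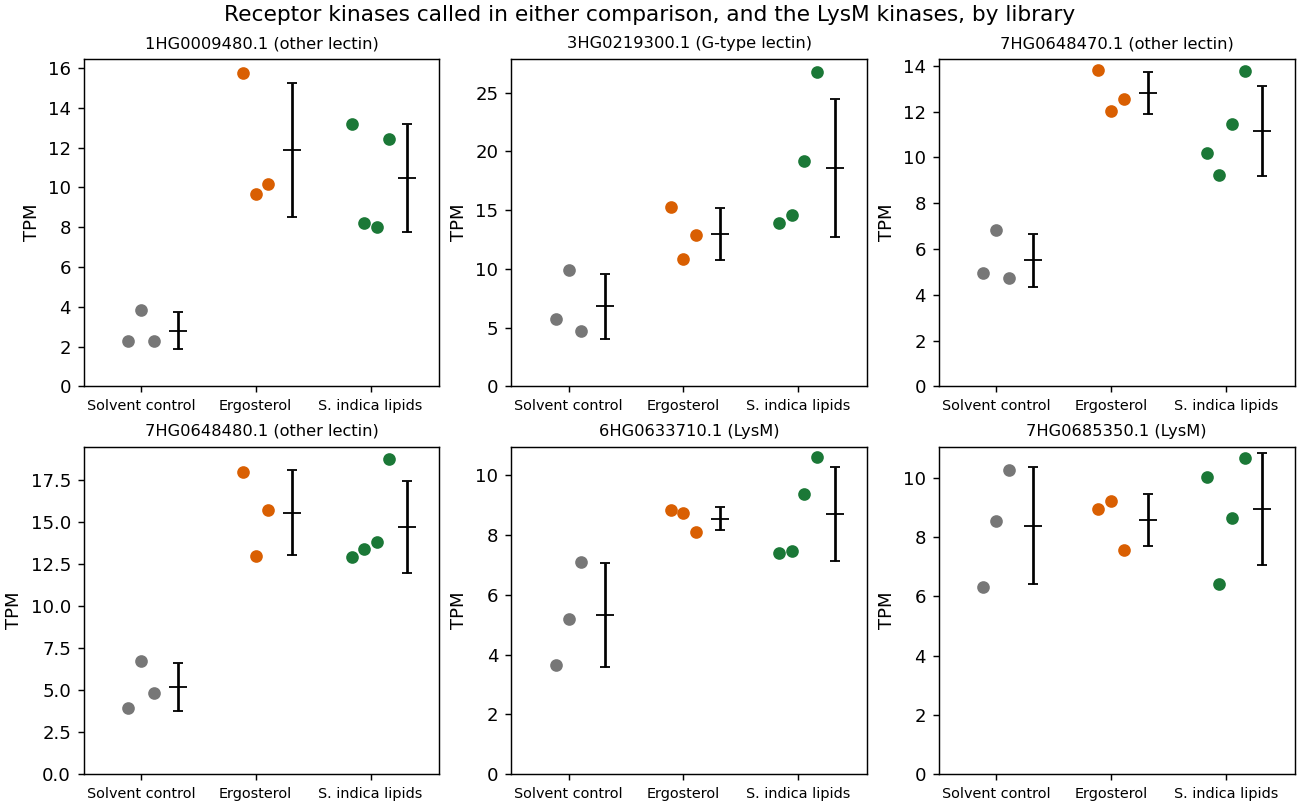
TPM of the 4 receptor kinases called in either comparison and of both LysM kinases, 1 point per library, with the mean and SD of each group at the right of its points. Treated libraries of the 4 called kinases all lie above their solvent control libraries, and those of the LysM kinase 7HG0685350.1 overlap them.

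Both G-type lectin kinases above the minimum were among the most changed members, in opposite directions. The G-type lectin S-receptor-like kinase HORVU.MOREX.r3.3HG0219300.1 had 5.76, 9.92 and 4.73 TPM in the solvent control, 15.3, 10.9 and 12.9 TPM upon ergosterol and 13.9, 14.6, 19.1 and 26.7 TPM upon *S. indica* lipids. The treated libraries did not overlap the controls, although ergosterol replicate 2 lay close to solvent control replicate 2. It rose upon *S. indica* lipids (log2FC 1.34 ± 0.25 SE, adjusted *p* = 0.0132), and its log2FC upon ergosterol was 0.89 ± 0.27 (adjusted *p* = 0.116). Without solvent control replicate 1 or 3 the call upon *S. indica* lipids was lost (adjusted *p* up to 0.0676), and without solvent control replicate 2 the log2FC upon ergosterol was 1.16, past both limits.

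The S-locus lectin kinase HORVU.MOREX.r3.2HG0195500.1 had 74.0, 83.0 and 116 TPM in the solvent control, 56.3, 56.5 and 60.7 TPM upon ergosterol and 43.3, 33.5, 70.4 and 41.6 TPM upon *S. indica* lipids. It was the one member wholly below the solvent control in both treatments. Its log2FC was −0.96 ± 0.22 (SE; adjusted *p* = 0.0355) upon *S. indica* lipids and −0.62 ± 0.24 (adjusted *p* = 0.185) upon ergosterol. This fall was marginal, since the adjusted *p* stayed at or under 0.05 in 1 of 10 fits with a library left out (range 0.0045 to 0.153), the exception being the fit without *S. indica* lipid replicate 3. The summed level of the class, dominated by this kinase, was 97.8 ± 20.9 TPM (SD, n = 3) in the solvent control, 70.8 ± 3.20 upon ergosterol (n = 3) and 65.8 ± 17.9 upon *S. indica* lipids (n = 4).

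Among the 13 CRKs, 2 (15.4%) were higher by the adjusted *p* upon ergosterol and 1 (7.69%) upon *S. indica* lipids. Over all transcripts these shares were 2.85% and 3.29%. None of the 13 rose by a log2FC of 1. HORVU.MOREX.r3.6HG0545990.1 had 17.3, 24.97 and 20.8 TPM in the solvent control, 34.5, 32.7 and 40.7 TPM upon ergosterol and 35.7, 35.7, 40.3 and 46.6 TPM upon *S. indica* lipids. The treated libraries all exceeded the controls. Its log2FC was 0.76 ± 0.15 (SE; adjusted *p* = 0.0196) and 0.89 ± 0.14 (adjusted *p* = 0.0047). The rise upon *S. indica* lipids passed in all 10 fits with a library left out, and that upon ergosterol in 6 of 10 (adjusted *p* up to 0.0965), being lost without solvent control replicate 1 or 3 or ergosterol replicate 1 or 3.

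HORVU.MOREX.r3.3HG0308350.1 had 60.6, 54.5 and 59.9 TPM in the solvent control, 77.1, 89.9 and 83.5 TPM upon ergosterol and 73.7, 77.9, 79.2 and 68.2 TPM upon *S. indica* lipids. All treated libraries lay above the controls, and the treatments overlapped each other. Its change was small, at 0.51 ± 0.09 on the log2 scale (SE; adjusted *p* = 0.0131) for ergosterol and 0.35 ± 0.09 (adjusted *p* = 0.0514) upon *S. indica* lipids. The first lost its call without ergosterol replicate 3 (adjusted *p* = 0.0630). Its neighbours HORVU.MOREX.r3.3HG0308360.1 and HORVU.MOREX.r3.3HG0308410.1 had log2FC of 0.27 and −0.15 upon ergosterol, and neither passed.

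Other CRKs lay lower upon ergosterol without passing the test. HORVU.MOREX.r3.2HG0154760.1 had 7.65, 13.4 and 12.7 TPM in the solvent control, 1.22, 5.54 and 8.82 TPM upon ergosterol and 9.61, 5.44, 12.5 and 7.25 TPM upon *S. indica* lipids. The ergosterol libraries spread over a wide range and 1 overlapped the controls (log2FC −1.19 ± 0.47 SE, adjusted *p* = 0.198). Its neighbours HORVU.MOREX.r3.2HG0154740.1 and HORVU.MOREX.r3.2HG0154790.1, given for their position, had log2FC of −0.15 and −0.34 upon ergosterol. Summed over all 3 neighbours, the level was 35.75 ± 4.63 TPM (SD, n = 3) in the solvent control. It was 26.06 ± 4.78 upon ergosterol (n = 3) and 35.35 ± 7.04 upon *S. indica* lipids (n = 4). HORVU.MOREX.r3.1HG0043960.1 had 9.11, 11.7 and 10.0 TPM in the solvent control, 8.70, 3.31 and 6.62 TPM upon ergosterol and 11.6, 8.61, 10.1 and 13.6 TPM upon *S. indica* lipids. All ergosterol libraries lay below the controls (log2FC −0.72 ± 0.26, adjusted *p* = 0.171). The most abundant CRK, HORVU.MOREX.r3.5HG0516270.1, had log2FC of 0.12 and 0.22, and its 95% intervals (−0.11 to 0.35 and 0.01 to 0.43) did not reach 2-fold. Summed over the class, CRK levels were 255 ± 19.3 TPM (SD, n = 3) in the solvent control, 295 ± 23.6 upon ergosterol (n = 3) and 312 ± 14.9 upon *S. indica* lipids (n = 4).

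Neither LysM kinase passed the test. HORVU.MOREX.r3.6HG0633710.1 had 3.64, 5.21 and 7.12 TPM in the solvent control, 8.84, 8.73 and 8.11 TPM upon ergosterol and 7.39, 7.47, 9.37 and 10.6 TPM upon *S. indica* lipids. All 7 treated libraries lay above the 3 controls, 2 of them by a small margin. The log2FC was 0.63 ± 0.20 (SE; adjusted *p* = 0.122) and 0.64 ± 0.19 (adjusted *p* = 0.0979), with 95% intervals of 0.20 to 1.07 and 0.23 to 1.05. Without solvent control replicate 3, the highest of the controls, the log2FC upon *S. indica* lipids was 0.84 and passed the test. Leaving out the highest control raises the log2FC of itself, so this pass is no evidence of a rise.

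HORVU.MOREX.r3.7HG0685350.1 had 6.32, 8.56 and 10.3 TPM in the solvent control, 8.97, 9.22 and 7.58 TPM upon ergosterol and 10.0, 6.41, 8.64 and 10.7 TPM upon *S. indica* lipids. The groups overlapped throughout, and the 95% intervals of the log2FC (−0.38 to 0.48 and −0.32 to 0.49) did not reach a 2-fold change in either direction.

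No WAK passed the test in either comparison, and the 6 log2FC ranged from −0.51 to 0.15 upon ergosterol and from −0.37 to 0.37 upon *S. indica* lipids. The 95% intervals of all 6 included 0 in both. Of the 6, 1 was above 0 upon ergosterol, where 36.9% of all transcripts were. HORVU.MOREX.r3.1HG0047280.1 had the lowest log2FC upon ergosterol, with 3.80, 5.97 and 2.66 TPM in the solvent control and 3.07, 1.94 and 2.55 TPM upon ergosterol (adjusted *p* = 0.266). HORVU.MOREX.r3.4HG0352850.1, the most abundant WAK, was level, with log2FC of −0.03 and −0.09 and 95% intervals of −0.45 to 0.39 and −0.48 to 0.30. HORVU.MOREX.r3.5HG0460600.1 ranged from 0.820 to 11.9 TPM within the *S. indica* lipid libraries, and its intervals (−1.72 to 1.32 and −1.80 to 1.05) included a 2-fold change in either direction. Summed WAK levels were 24.4 ± 6.28 TPM (SD, n = 3), 19.8 ± 3.25 (n = 3) and 23.2 ± 4.92 (n = 4).

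A further lectin receptor kinase was higher by the adjusted *p* in both comparisons. HORVU.MOREX.r3.2HG0196170.1 had 3.89, 4.84 and 4.71 TPM in the solvent control, 7.01, 7.08 and 6.67 TPM upon ergosterol and 6.46, 6.98, 6.78 and 8.44 TPM upon *S. indica* lipids. Treated libraries lay above the controls in every case. The log2FC was 0.54 ± 0.13 (SE; adjusted *p* = 0.0491) and 0.57 ± 0.12 (adjusted *p* = 0.0221), of which the first passed in 1 and the second in 6 of 10 fits with a library left out (adjusted *p* up to 0.163 and 0.0887).

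HORVU.MOREX.r3.1HG0093920.1 measured 0.620, 0.593 and 0.742 TPM in the solvent control, 1.61, 1.96 and 1.84 TPM upon ergosterol and 1.59, 0.864, 1.42 and 1.63 TPM upon *S. indica* lipids. All treated libraries exceeded the controls at this low level. Because it reached the minimum through these libraries, its rise is given as a description without a test. The log2FC was 0.76 upon ergosterol and 0.51 upon *S. indica* lipids, and it depended on the pseudocount, being 1.34 and 0.94 with 0.1 in place of 1. Under both smaller pseudocounts, 4 members instead of 3 passed both limits upon ergosterol. The log2FC of HORVU.MOREX.r3.1HG0093920.1 upon ergosterol was then 1.34 (0.1) and 1.00 (0.5). The count of 4 may therefore include it, and is no test of its rise. A lectin receptor kinase outside the rule for named genes also passed. HORVU.MOREX.r3.5HG0513630.1 was higher upon *S. indica* lipids (log2FC 0.84, adjusted *p* = 0.0292, passing in 4 of 10), and it had 0.69 upon ergosterol (adjusted *p* = 0.0923).

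A pair of lectin protein kinases were at 0 TPM in some libraries. HORVU.MOREX.r3.1HG0028450.1 was at 0, 7.88 and 0 TPM in the solvent control, at 0, 7.45 and 21.6 TPM upon ergosterol and at 0, 0, 7.05 and 0 TPM upon *S. indica* lipids. Its presence followed no group. HORVU.MOREX.r3.1HG0088860.1 was at 1.57, 4.80 and 0 TPM in the solvent control, at 1.16, 0 and 3.34 TPM upon ergosterol and at 1.24, 0, 0 and 1.99 TPM upon *S. indica* lipids. The other 52 members were above 0 in every library. The SE of the log2FC upon ergosterol ranged over the members from 0.09 to 1.23, with a median of 0.19.

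**Figure D4:**
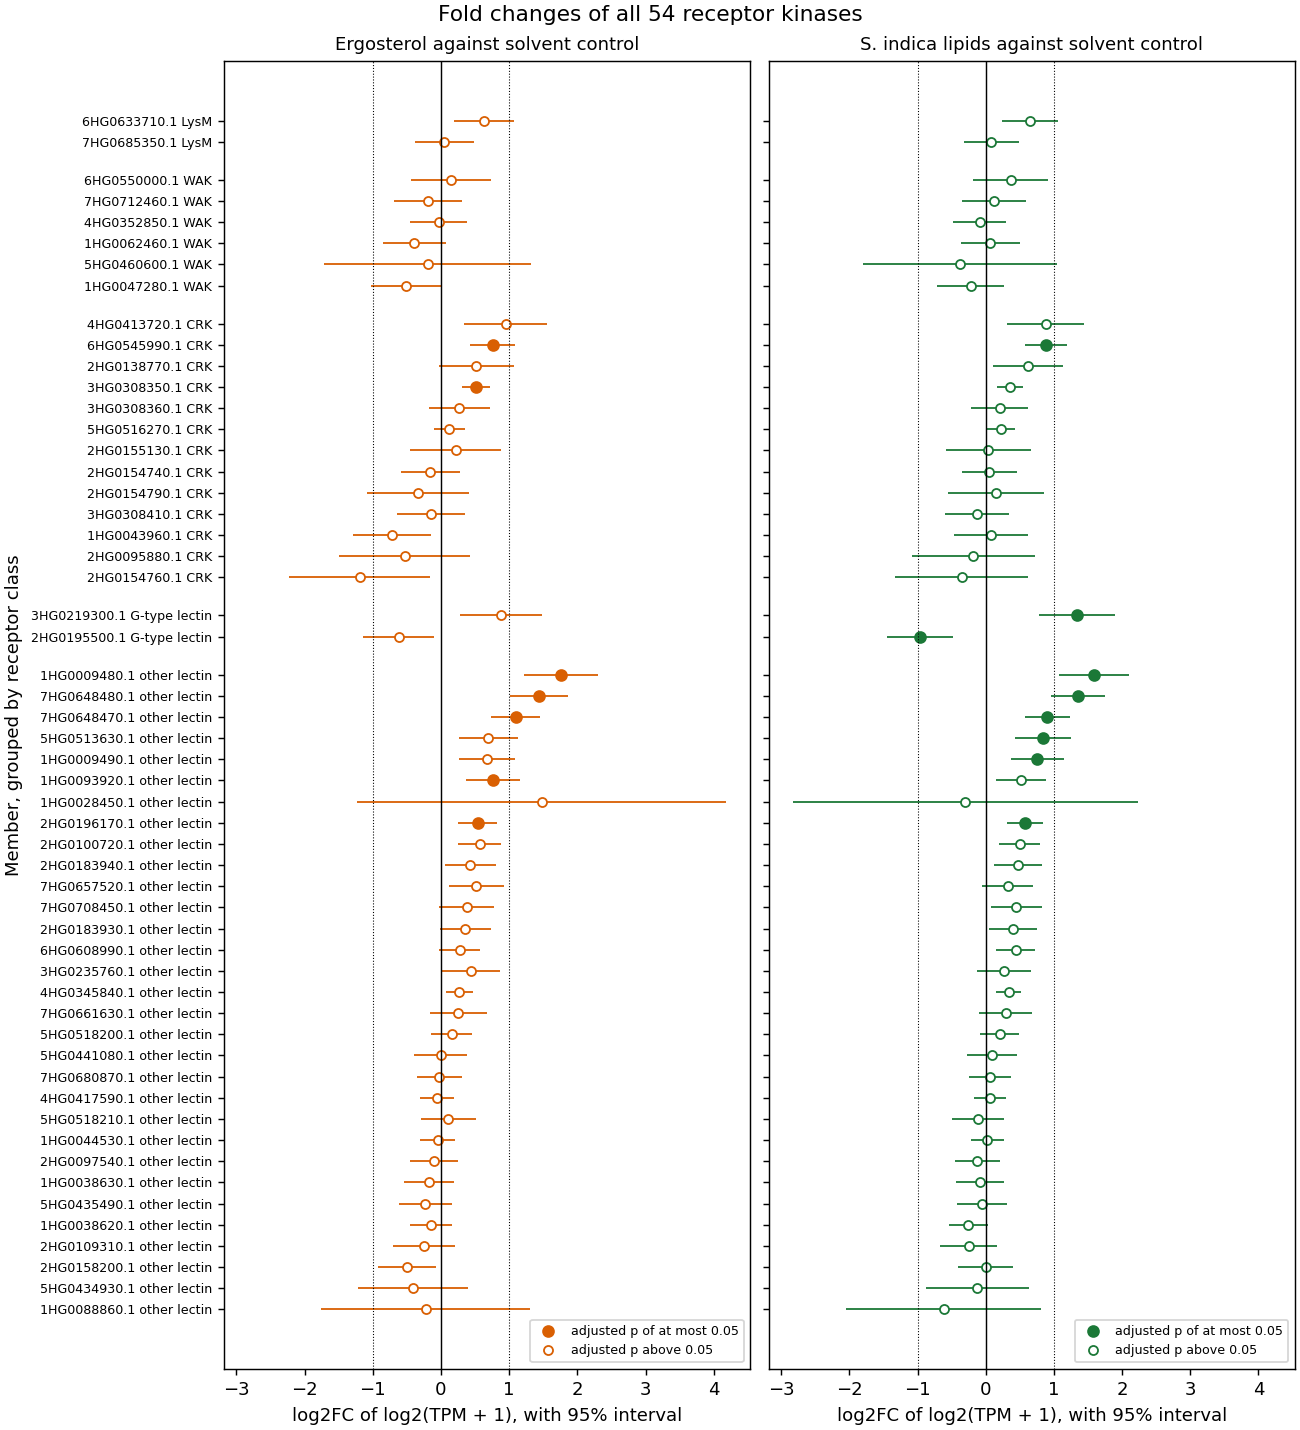
Log2FC of the 54 receptor kinases upon ergosterol (left) and upon *S. indica* lipids (right), by class, with 95% intervals of the difference from limma. Filled points have an adjusted *p* of at most 0.05, and dotted lines mark a log2FC of −1 and 1. Of the filled points, 7 are above 0 upon ergosterol, and 8 are above and 1 is below 0 upon *S. indica* lipids. The 7 include HORVU.MOREX.r3.1HG0093920.1, which reached the minimum only through the treated libraries.

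To see where the 2 treatments differed, ergosterol was compared directly with *S. indica* lipids. None of the 54 members passed the adjusted *p* (0 called, lowest adjusted *p* = 0.848 by limma), as 0.0% of all transcripts passed both limits and 0.00546% the adjusted *p* alone. At an unadjusted *p* under 0.05, 0 members were higher and 3 (5.56%) were lower upon ergosterol than upon *S. indica* lipids. Among all transcripts these shares were 1.58% and 3.74%. The half-width of the 95% interval of the difference had a median of 0.40 on the log2 scale and reached 2.53. The largest differences by size were those of HORVU.MOREX.r3.1HG0028450.1 (1.77, interval −0.75 to 4.30), HORVU.MOREX.r3.2HG0154760.1 (−0.84, interval −1.81 to 0.13) and HORVU.MOREX.r3.1HG0043960.1 (−0.79, interval −1.34 to −0.25). For the called lectin receptor kinase HORVU.MOREX.r3.1HG0009480.1 the difference was 0.17 (interval −0.34 to 0.67), and for HORVU.MOREX.r3.3HG0219300.1 it was −0.45 (interval −1.01 to 0.11).

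Other receptor kinases were set beside these classes as a description. Of 66 leucine-rich repeat kinases tested, 4 (6.06%) were higher by the adjusted *p* upon ergosterol and 7 (10.6%) upon *S. indica* lipids, and 0 were lower. Of 285 transcripts of receptor-like kinases described without any of the class words, some from the same locus, 39 (13.7%) and 37 (13.0%) were higher and 0 were lower. The shares among the 54 members, 13.0% and 14.8%, thus lay next to those of the other receptor-like kinases, and the difference was not tested. Without the member below 1 TPM in the solvent control, the members' share upon ergosterol was 11.3%. Median log2FC upon ergosterol were 0.18 for leucine-rich repeat kinases and 0.12 for the other receptor-like kinases, and upon *S. indica* lipids 0.15 and 0.13.

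**Figure D5:**
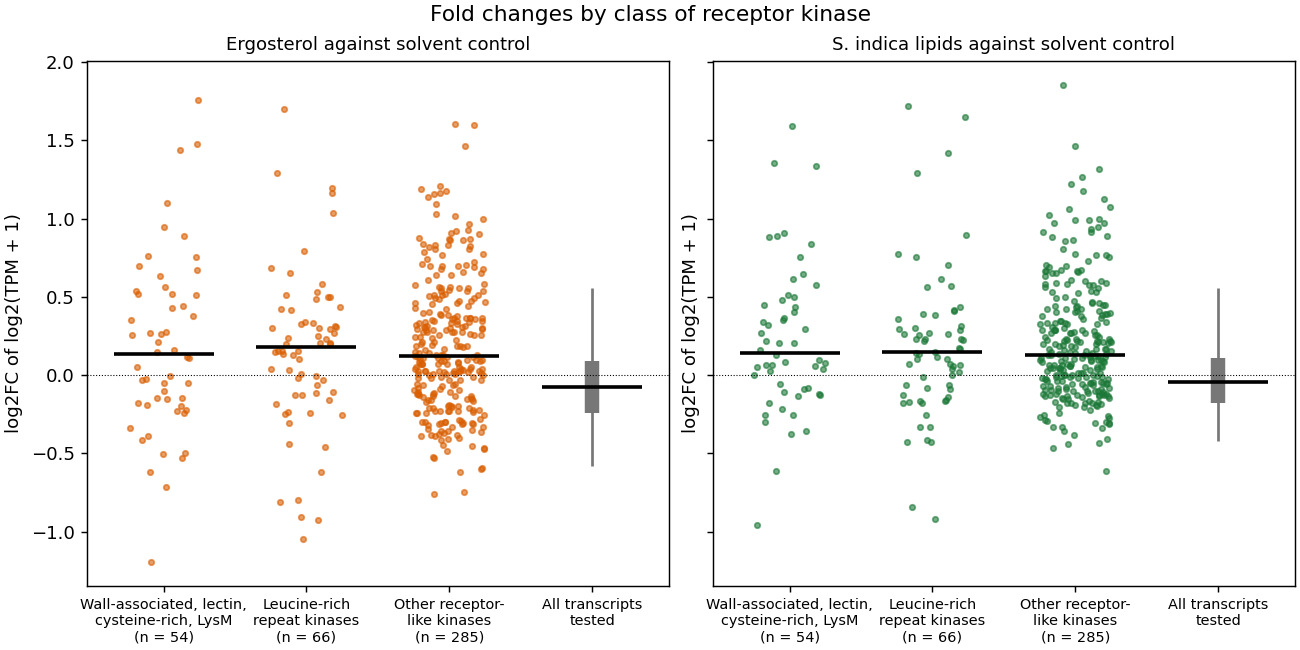
Log2FC upon ergosterol (left) and *S. indica* lipids (right) of the 54 receptor kinases, of 66 leucine-rich repeat kinases and of 285 other receptor-like kinases, 1 point per transcript, with the median as a black line. The grey bar gives the quartiles and the grey line the 5th to 95th percentile of all transcripts tested. Medians of the 3 kinase groups lie between 0.12 and 0.18, and those of all transcripts at −0.08 and −0.04.

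Genes that act before or after such receptors were matched by their descriptions. The 10 tested LysM proteins without a kinase domain in their description had a median log2FC of 0.13 upon ergosterol and 0.29 upon *S. indica* lipids. Of these, 2 (20.0%) were higher by the adjusted *p* in both comparisons, against 2.85% and 3.29% of all transcripts, and none was lower. They were the LysM domain GPI-anchored protein HORVU.MOREX.r3.4HG0409440.1, a membrane-attached protein of the family that binds chitin in rice, and the peptidoglycan-binding LysM domain protein HORVU.MOREX.r3.4HG0417740.1. The former rose from 78.1 ± 18.5 TPM (SD, n = 3) to 118 ± 2.32 upon ergosterol (n = 3; log2FC 0.62, adjusted *p* = 0.0489) and 129 ± 11.7 upon *S. indica* lipids (n = 4; log2FC 0.74, adjusted *p* = 0.0120).

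The search for wall-associated or lectin proteins without kinase gave 13 tested transcripts. All were matched by the letters of lectin, which took in a plectin-like protein, and none was described as wall-associated. Of the 13, 2 (15.4%) rose past both limits upon ergosterol and 4 (30.8%) upon *S. indica* lipids, against 1.16% and 1.17% of all transcripts. By the adjusted *p*, 1 was lower upon ergosterol, where 0.458% of all transcripts were. The lectin-related proteins HORVU.MOREX.r3.6HG0547150.1 and HORVU.MOREX.r3.6HG0547200.1 rose in both, the first with a log2FC of 1.26 and 1.05 and the second with 1.19 and 1.18. The lectin-related protein HORVU.MOREX.r3.2HG0097650.1 rose upon *S. indica* lipids (log2FC 1.41, adjusted *p* = 0.0293) and had 1.34 upon ergosterol (adjusted *p* = 0.0580). The mannose-binding lectin HORVU.MOREX.r3.5HG0531210.1 rose upon *S. indica* lipids (log2FC 1.58, adjusted *p* = 0.0238) and had 1.22 upon ergosterol (adjusted *p* = 0.0983). The ricin B-like lectin HORVU.MOREX.r3.4HG0379640.1 fell upon ergosterol (log2FC −0.71, adjusted *p* = 0.0356).

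Chitinases are enzymes that cut chitin into fragments. Their 26 transcripts, some from the same locus, had a median log2FC of −0.06 upon ergosterol and 0.04 upon *S. indica* lipids. Of these, 2 (7.69%) were higher by the adjusted *p* in each comparison, against 2.85% and 3.29% of all transcripts. The chitinase family protein HORVU.MOREX.r3.6HG0592970.1 rose from 16.5 ± 6.99 TPM (SD, n = 3) to 39.4 ± 2.38 (n = 3; log2FC 1.28, adjusted *p* = 0.0102) and 59.3 ± 7.84 (n = 4; log2FC 1.85, adjusted *p* = 0.00066). The chitinase HORVU.MOREX.r3.1HG0038930.1 was higher by 0.89 and 0.81 on the log2 scale (adjusted *p* = 0.00040 and 0.00038). The 14 pectin-modifying enzymes, which shape the pectin that WAKs bind, had a median log2FC of −0.01 upon ergosterol and 0.05 upon *S. indica* lipids. Of these, 1 (7.14%) rose past both limits in both comparisons, against 1.16% and 1.17% of all transcripts. This pectinesterase, HORVU.MOREX.r3.1HG0050650.1, went from 48.8 ± 6.34 TPM to 107 ± 5.15 and 120 ± 10.9 TPM (log2FC 1.12 and 1.28, adjusted *p* = 0.00040 and 0.00012).

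Downstream of receptor kinases lie NADPH oxidases, which make apoplastic reactive oxygen. Their 10 transcripts, some from the same locus, had a median log2FC of −0.13 upon ergosterol and −0.03 upon *S. indica* lipids. Of these, 1 (10.0%) was higher in both comparisons by the adjusted *p*, against 2.85% and 3.29% of all transcripts. This respiratory burst oxidase homolog, HORVU.MOREX.r3.4HG0409670.1, had 48.2 ± 7.80 TPM in the solvent control, 79.0 ± 3.69 upon ergosterol (log2FC 0.71, adjusted *p* = 0.0113) and 68.4 ± 7.48 upon *S. indica* lipids (log2FC 0.50, adjusted *p* = 0.0404). The 23 transcripts of the MAP kinase cascade had a median log2FC of −0.07 upon ergosterol and −0.004 upon *S. indica* lipids. Of these, 1 (4.35%) rose past both limits in both comparisons, against 1.16% and 1.17% of all transcripts. The MAP kinase kinase kinase HORVU.MOREX.r3.6HG0613640.1 went from 13.2 ± 12.3 TPM to 55.1 ± 11.2 and 51.0 ± 19.0 TPM, with log2FC of 2.37 and 2.21 (adjusted *p* = 0.0403 and 0.0343). No receptor-like cytoplasmic kinase reached the minimum under this wording, with 1 such description in the table.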

How the data were processed

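Barley root RNA, collected at 2 hpt, was sequenced from 3 libraries each of the solvent control and ergosterol and 4 of *S. indica* lipids. The methods state 4 replicates per treatment, and the 10 libraries here are those used. The authors selected poly-A RNA, trimmed reads with Trimmomatic 0.39, checked them with FastQC and estimated abundances with kallisto 0.46.1 against the MorexV3 cDNA. The deposited values used are a signal in TPM per transcript and library. The table repeats 5420 of its 43382 lines with identical values, and each transcript was kept once, after which TPM of a library sum to 1000000. Columns of the authors' mean TPM, fold changes and sleuth *q*-values were not used.

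Values were taken as log2(TPM + 1), and the 18330 transcripts that averaged 1 TPM or more were fitted with limma 3.58.1 (R 4.3.3), with 1 mean per group, moderated variances with a trend and Benjamini-Hochberg adjustment over all 18330. Called transcripts had an adjusted *p* no higher than 0.05 and a log2FC no smaller in size than 1, the study's limits. The fit was tested on simulated data. The 54 members, the gene lists and the tests were chosen with earlier results of these data known, and parts of the study's supplementary tables had been read.

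Named genes were members called in either comparison, members with both adjusted *p* at most 0.05, the 3 most abundant per class, LysM kinases, the 4 lowest and 3 most different between treatments, and the pairs on either side of the minimum. Others named are marked, and genes outside the 54 are those of the lists that passed the test. Alternatives were pseudocounts of 0.1 and 0.5, no minimum, a minimum of 5 TPM, scaling by median ratios, quantile normalization, only the 2 groups compared in a fit, no trend, array weights, a replicate block, sums of TPM per locus, leaving out each library and no fold limit. None of the 37962 identifiers matched the RefSeq gene table, so no positions or sequences are given. Chromosomes were read from the identifiers. Python 3.11.15 with pandas 2.3.3 and numpy 2.4.6 served for the tables.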

Additional observations from a re-analysis of the deposited data

Results flagged for a closer look

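Among the 22 named members, 2 had an *S. indica* lipid library far from the other 3. The gap over the range lay above Dixon's limit for 4 samples, which chance exceeds in about 1 in 20 groups. Over 22 members, some such gaps can arise by chance. HORVU.MOREX.r3.1HG0028450.1 reached 7.05 TPM in replicate 3 and was at 0 in the others, and the rate given does not hold for such ties. HORVU.MOREX.r3.7HG0648480.1 reached 18.7 TPM in replicate 4, where the others lay between 12.9 and 13.8 TPM, and its log2FC remained past both limits without that library.

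Among described transcripts below the minimum, 3 were at 0 TPM in all solvent control libraries and above 0 in all libraries of a treatment. The WAK HORVU.MOREX.r3.4HG0355860.1 had a mean of 1.70 TPM upon ergosterol (2.53, 1.68 and 0.878 TPM), and upon *S. indica* lipids it was at 1.27, 0.933, 0.804 and 0 TPM. The CRK HORVU.MOREX.r3.7HG0657240.1 had a mean of 0.239 TPM upon *S. indica* lipids. The lectin receptor kinase HORVU.MOREX.r3.7HG0634370.1 had a mean of 0.0603 TPM upon ergosterol. The CRK and the lectin receptor kinase lay near 0 TPM. The share of all transcripts below the minimum with this pattern was not counted, so the count of 3 cannot be read as a response. The 3 transcripts were not tested in the fit.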

How the results depend on the processing

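The lectin receptor kinases HORVU.MOREX.r3.1HG0009480.1 and HORVU.MOREX.r3.7HG0648480.1 passed both limits in both comparisons under all 21 alternatives, and HORVU.MOREX.r3.7HG0648470.1 did so upon ergosterol. Named members with an adjusted *p* of at most 0.05 in a comparison kept their direction in it whichever library was left out. The directions of the other named members were less certain. Leaving out the fold limit gave 7 members upon ergosterol and 9 upon *S. indica* lipids instead of 3 each, and a pseudocount of 0.1 gave 6 upon *S. indica* lipids. Members higher by the adjusted *p* alone numbered 15 upon ergosterol with array weights, and 2 were then lower instead of 0. Upon *S. indica* lipids 5 were higher in fits of only the 2 groups compared. The 1 member lower upon *S. indica* lipids was lost (0) with no minimum, median-ratio scaling, only the 2 groups compared or no trend. With each library left out, members past both limits ranged from 3 to 4 upon ergosterol and from 2 to 5 upon *S. indica* lipids, those higher by the adjusted *p* from 3 to 8 and from 4 to 10, and those lower upon *S. indica* lipids from 0 to 1. The causes were not tested. With the replicate number as a block (replicate block), 4 members instead of 8 were higher upon *S. indica* lipids 3 passed both limits upon ergosterol, and HORVU.MOREX.r3.3HG0219300.1 lost its call upon *S. indica* lipids (adjusted *p* = 0.0709). Same-numbered libraries did not deviate together (*r* from −0.188 to 0.196), so the numbers were not taken as pairs. Precision rests on 3 or 4 libraries per group.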
